A study of Mus musculus with 23 samples.

Results

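The microRNAs described here are the miR-99/100 family (miR-99a-5p, MIMAT0000131; miR-99b-5p, MIMAT0000132; miR-100-5p, MIMAT0000655) and the miR-125 family (miR-125a-5p, MIMAT0000135; miR-125b-5p, MIMAT0000136). They were taken by identifier from a table of nCounter measurements on a mouse microRNA panel, a method that tallies barcoded probes directly, with no amplification step. They make up 5 of the 602 microRNA rows and 5 of the 302 that were detected well enough to be tested. The RNA came from lung cells of wild-type C57BL6 mice, labelled as endothelial cells (EC, with CD31 in their descriptions) or type II pneumocytes (AT2, with CD326). The latter name is that of the surfactant-producing cells of the mature alveolus. The labels use it at every stage, embryonic ones included, and whether the CD326 cells were of 1 type throughout was not tested. No treatment group or altered allele is labelled. EC were represented by 10 samples, 2 each at embryonic day E16.5 and postnatal days P7, P14 and P28 and 1 each at E18.5 and P1. AT2 were represented by 13 samples, 3 at P28 and 2 at each other stage. Early stands below for E16.5 and E18.5, and late for P7, P14 and P28.

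A microRNA finds its targets mainly through its seed, the bases near its 5′ end, so members of a family that share a seed are thought to share many targets. The miR-99/100 family is known for repressing mTOR, a kinase that drives growth, and the miR-125 family, related to the worm developmental timer lin-4, for roles in differentiation and blood cell formation. In mammals both families lie beside let-7 genes, whose mature products accumulate as tissues differentiate, and neighbours in a cluster can be cut from a common transcript.

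The mature sequences are shown because the families divide by seed and because some members differ by few bases. All 5 were found by name in RefSeq's microRNA annotation of the mouse assembly GRCm38.p6 and lie on the plus strand. Capitals mark the seed (bases 2 to 8, counted from the 5′ end).
miR-99a-5p: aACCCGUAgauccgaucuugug
miR-99b-5p: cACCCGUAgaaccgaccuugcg
miR-100-5p: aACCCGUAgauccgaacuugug
miR-125a-5p: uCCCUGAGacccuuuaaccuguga
miR-125b-5p: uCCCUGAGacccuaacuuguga

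The miR-99/100 sequences share the seed ACCCGUA, and those of miR-125 share CCCUGAG. From miR-99a-5p, miR-100-5p differs by U16A alone and miR-99b-5p by A1C, U11A, U16C and U21C, positions being counted from the 5′ end. The first 13 bases of miR-125a-5p and miR-125b-5p are identical. Whether the panel's probes read such close relatives separately was not tested.

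The mature miR-99a-5p lies at chr16:77598940-77598961, miR-99b-5p at chr17:17830194-17830215, miR-100-5p at chr9:41531437-41531458 and miR-125a-5p at chr17:17830817-17830840. The mature miR-125b-5p is encoded at 2 places with the same sequence, chr9:41581940-41581961 in Mir125b-1 and chr16:77646279-77646300 in Mir125b-2, and 1 probe reads both. The genes form 3 groups with let-7 genes. Mir99b, Mirlet7e and Mir125a span 0.686 kb on chromosome 17. Mir99a, Mirlet7c-1 and Mir125b-2 span 47.4 kb on chromosome 16, and Mir100, Mirlet7a-2 and Mir125b-1 span 50.6 kb on chromosome 9.

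Values are nCounter counts multiplied by 1 factor per sample and are called levels below. Recovered microRNA counts ranged from 26640 (AT2 P28 replicate 1) to 571706 (EC P1 replicate 1), and factors from 0.296 to 7.93. All 5 members were above background in all 23 samples. In AT2 P28 replicate 1 the control rows behind the limit had no spread and gave 1 count, so passing it means little there. The next lowest limit was 6.74 counts, in AT2 P1 replicate 1. The lowest recovered counts were those of miR-100-5p, 5 in AT2 P28 replicate 1 (95% exact Poisson interval 1.62 to 11.7, counting error only) against a background limit of 1 count, and 23 in EC E18.5 replicate 1 (14.6 to 34.5) against a limit of 12. Probes differ in efficiency, so levels of different members were not ranked, and a ratio of members was compared only across samples.

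The labelled cell types were checked against microRNA markers, whose names, like those of the let-7 members and other arms below, were assigned from miRBase accession numbers, since the deposited table gives identifiers only. The 2 endothelial markers (both arms of miR-126a) were lower in AT2 and the 6 epithelial ones (miR-200 family and miR-375) were higher. All 4 mesenchymal, 3 leukocyte and 2 erythroid markers tested were lower in AT2. The endothelial sum ranged from 50228 to 203745 in EC and from 355 to 10817 in AT2, and the epithelial sum from 527 to 10259 in EC and from 10424 to 19329 in AT2. EC P14 replicate 2 held both the lowest endothelial and the highest epithelial sum of the EC samples. The mesenchymal sum ranged from 1130 to 5662 in EC and from 221 to 3493 in AT2, the leukocyte sum from 908 to 2852 and from 28.4 to 162, and the erythroid sum from 43.5 to 206 and from 9.53 to 54.5. No marker list was used to adjust a member's value, and the part of other cell types in the results below was not tested.

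The first comparison asked which members differ between the 2 cell types. miR-100-5p and miR-125a-5p were lower in AT2 when averaged over the 6 stages, by 3.18-fold and 1.94-fold. The other members did not pass the test. Of all 302 microRNAs tested, 47.7% were called lower in AT2, so 2 of 5 members lies near the background. The median difference over all tested was -0.43 on the log2 scale and that of the members was -0.29. With background subtracted the median over all tested was 0.12.

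miR-100-5p showed the widest gap between the cell types among the 5. In EC its level was 208 and 205 at E16.5, 182 in the E18.5 sample, 125 in the P1 sample, 407 and 310 at P7, 395 and 192 at P14, and 606 and 413 at P28. In AT2 it was 98.9 and 147 at E16.5, 65.9 and 129 at E18.5, 56.8 and 55.6 at P1, 62.1 and 83.0 at P7, 116 and 87.9 at P14, and 37.2, 59.3 and 46.5 at P28. Of the 13 AT2 samples 11 lay below every EC sample, and the other 2 were embryonic AT2 samples that exceeded only EC P1 replicate 1. Means were 304 ± 149 (SD, n = 10) in EC and 80.4 ± 33.8 (SD, n = 13) in AT2.

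The fitted log2 difference of miR-100-5p, AT2 minus EC, was -1.67 ± 0.19 (SE), with a limma adjusted p of 7.88e-07. Relative to the median of all tested it was -1.24, and -1.79 with background subtracted. The level was lower in AT2 in 9 of 9 pairs of samples that carry the same title ID and stage. The call was kept under 13 of 13 alternatives, with differences from -1.93 to -0.88, and in 23 of 23 fits that left out a sample. In bulk RNA, fewer cells of a type and less microRNA per cell cannot be told apart.

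miR-125a-5p was the other member lower in AT2. In EC its level was 6928 and 7182 at E16.5, 7364 in the E18.5 sample, 3390 in the P1 sample, 6174 and 4229 at P7, 6228 and 3333 at P14, and 5619 and 3432 at P28. In AT2 it was 4111 and 4384 at E16.5, 4292 and 4700 at E18.5, 1952 and 1550 at P1, 1744 and 2057 at P7, 3506 and 1957 at P14, and 2795, 2289 and 1382 at P28. The cell types overlapped, since the late EC samples with the lowest levels lay below the early AT2 samples, but 8 of 13 AT2 samples lay below every EC sample. The fitted log2 difference was -0.95 ± 0.18 (SE), adjusted p = 0.000163 by limma, and 8 of 9 title ID pairs were lower in AT2. Scaled to the total microRNA count, the difference was -0.15 with an adjusted p of 0.632. That scaling moved the median of all tested from -0.43 to 0.34, and relative to it miR-125a-5p stood at -0.50, against -0.52 with the deposited scaling. With background subtracted it stood at -1.07 relative to that median.

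For miR-125b-5p the averaged log2 difference was 0.15 ± 0.18 (SE, limma adjusted p = 0.472), with a 95% interval from -0.23 to 0.53. It was called higher in AT2 under 4 alternatives: 0.50 by median shift, which gives every sample the same median over the tested microRNAs (adjusted p = 0.0298), 0.46 by quantile scaling (0.0344), 0.95 by total-count scaling (0.00885) and 0.50 by edgeR (0.0249). Without AT2 P28 replicate 1 and EC E18.5 replicate 1, which had the fewest counts, the miR-125b-5p difference turned to -0.03. The difference of miR-99a-5p was -0.06 ± 0.21 (adjusted p = 0.815, 95% interval -0.50 to 0.39). With total-count scaling it turned to 0.74 and was called (adjusted p = 0.0466). The difference of miR-99b-5p was -0.29 ± 0.23 (adjusted p = 0.27, 95% interval -0.77 to 0.19), and with total-count scaling it was 0.51 (adjusted p = 0.212). No member's 2 cell types were fully separated over all samples, as 5.3% of the tested microRNAs were.

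**Figure D1:**
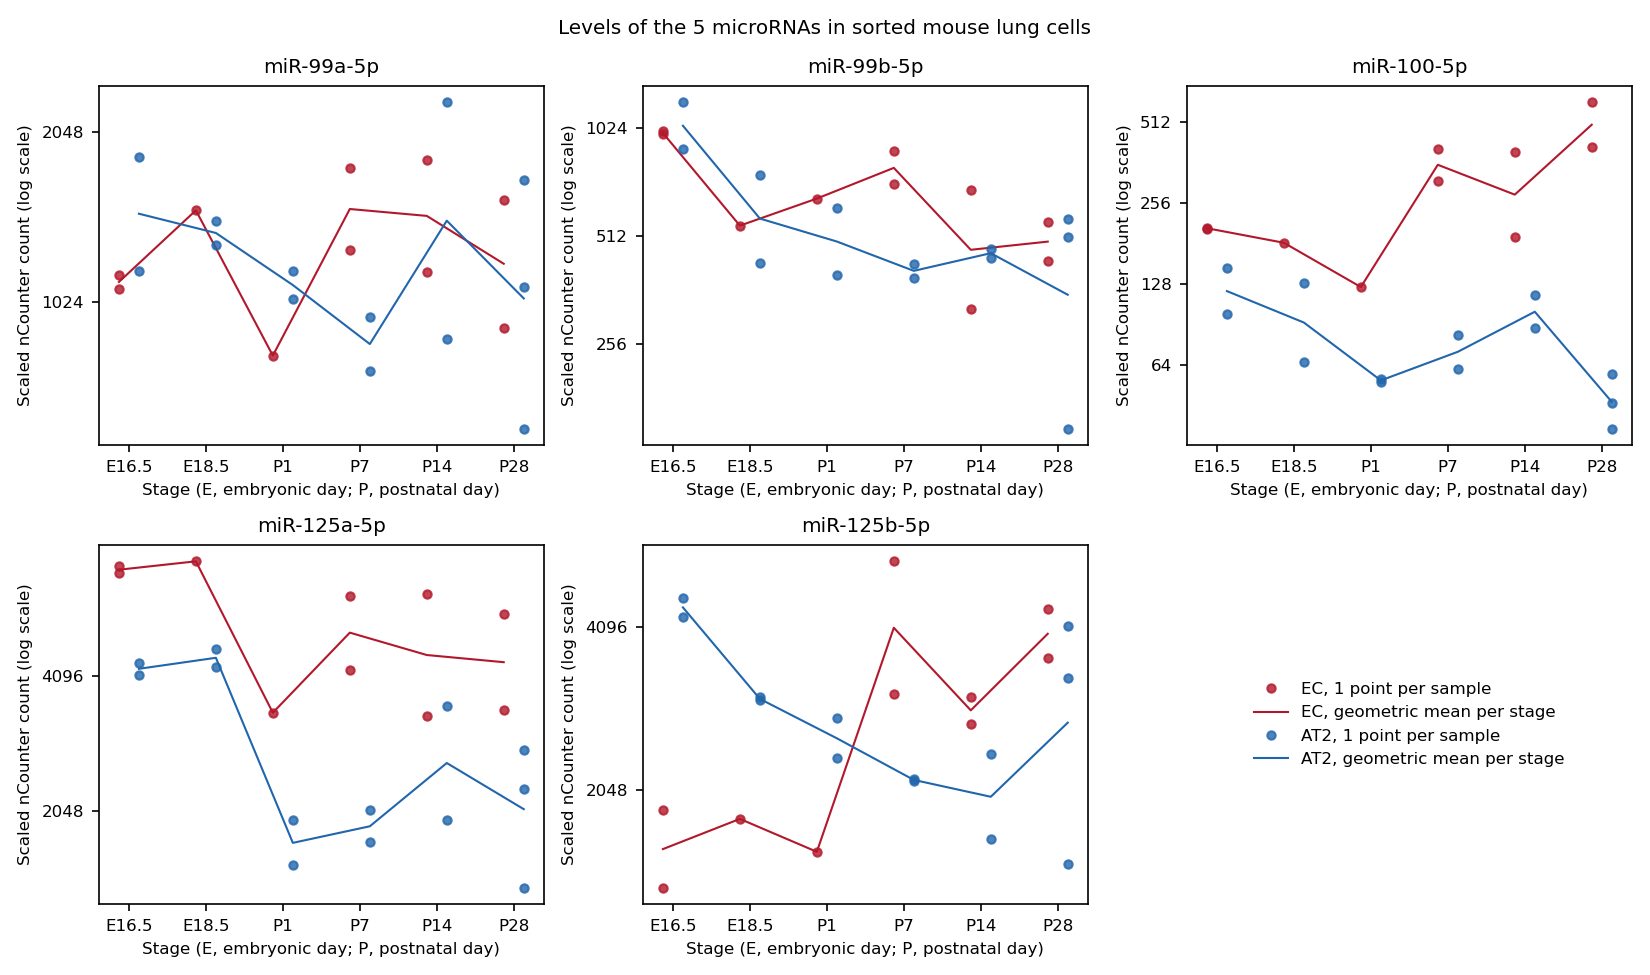
Level (scaled nCounter count, log axis) of each member against stage, with 1 point per sample and lines through the geometric mean per stage, EC in red and AT2 in blue. EC points of miR-100-5p rise to 413 and 606 at P28 where AT2 points lie between 37.2 and 59.3, and the 2 cell types cross in miR-125b-5p between P1 and P7.

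Within the miR-99/100 family, the near-identical miR-99a-5p and miR-100-5p parted by cell type. The level of miR-99a-5p ranged from 825 to 1831 in EC (median 1213, n = 10) and from 612 to 2315 in AT2 (median 1162, n = 13), so that its ranges overlapped widely. The ratio of miR-99a-5p to miR-100-5p within a sample had a geometric mean of 4.63 in EC and 15.8 in AT2. It ranged from 2.24 to 9.56 in EC and from 7.92 to 45.4 in AT2, and the ranges overlapped. The highest EC ratio was that of EC P14 replicate 2, the EC sample with the highest epithelial sum. A ratio within a sample does not depend on the scaling factor.

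Mir100 and Mir125b-1 share the chromosome 9 cluster. The ratio of miR-125b-5p to miR-100-5p separated the cell types fully, but how often ratios of other tested microRNAs do so was not counted. Its geometric mean was 9.63 in EC (n = 10, lowest 6.53) and 36.5 in AT2 (n = 13), and every EC ratio lay below the AT2 range of 18.9 to 111. The highest value was that of AT2 P28 replicate 1, which rests on 5 counts of miR-100-5p. No p was attached to the ratios, since these pairs were compared with the members' values known. How much of miR-125b-5p came from each of its genes cannot be read from the mature sequence.

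The second comparison took the cell types stage by stage. Of the 30 member and stage combinations 6 passed the test, 5 of them lower in AT2 and 1 higher. Over all tested microRNAs 425 of 1812 such combinations passed, 23.5%, so the members' share lay near the background. The member called higher was miR-125b-5p at E16.5, by 2.79-fold. The members called lower were miR-100-5p at P7, P14 and P28 and miR-125a-5p at P7 and P28.

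At E16.5, miR-125b-5p was at 4630 and 4278 in AT2 and at 1356 and 1882 in EC. These few samples did not overlap, and the share of all tested without overlap at this stage was not counted. The log2 difference was 1.48 ± 0.41 (SE, limma adjusted p = 0.0117), and 1 of 5 members was called at a stage where 35.8% of all tested were. It was called under 13 of 13 alternatives. Without EC E16.5 replicate 1 the adjusted p was 0.0944, and without AT2 E16.5 replicate 1 it was 0.0770. At E18.5 and P1, where EC had 1 sample each, 0 of 5 members passed in limma, and 2.65% and 7.28% of all tested did. At an unadjusted p under 0.05, 0 members passed at E18.5 and 1, miR-100-5p, passed at P1. edgeR also called none at either stage.

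At P7, 2 of 5 members were called and 44% of all tested. The log2 difference of miR-100-5p was -2.29 ± 0.43 (SE, adjusted p = 0.00105), lost with total-count scaling (-0.94, adjusted p = 0.327) and kept in 23 of 23 fits without a sample. That of miR-125a-5p was -1.43 ± 0.41 (adjusted p = 0.0137). It was lost under the 3 alternative scalings and by edgeR (adjusted p from 0.0744 to 0.976) and without EC P7 replicate 1 (0.120), AT2 P7 replicate 1 (0.0727) or AT2 P7 replicate 2 (0.0507). miR-125b-5p (-0.93 ± 0.41) had an adjusted p of 0.0741, but passed with array weights (0.00748) and without AT2 P28 replicate 3 (0.0278). With array weights in limma, miR-99b-5p (-0.95, adjusted p = 0.0179) and miR-99a-5p (-0.79, 0.0393) passed at P7 as well.

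At P14, 1 of 5 members was called and 21.9% of all tested. The difference of miR-100-5p was -1.44 ± 0.43 (adjusted p = 0.0269), and EC P14 replicate 2, at 192, stood nearest to the AT2 samples. The call was lost without EC P14 replicate 1 (0.404), AT2 P14 replicate 1 (0.0750) or AT2 P14 replicate 2 (0.143), and under 6 alternatives (adjusted p from 0.0512 to 0.478). Without EC P14 replicate 2 the difference was -1.96 and the adjusted p 0.00479, and miR-125a-5p then passed as well (-1.25, adjusted p = 0.0454).

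At P28, 2 of 5 members were called and 29.1% of all tested. miR-100-5p was 10.5-fold lower in AT2, a log2 difference of -3.39 ± 0.39 (SE, adjusted p = 1.05e-05 by limma). This call was kept under 13 of 13 alternatives and without any 1 of the 23 samples, with differences from -3.67 to -2.89. miR-125a-5p was 2.12-fold lower, with a log2 difference of -1.09 ± 0.38 (adjusted p = 0.0362). It was lost under 6 alternatives (adjusted p from 0.0510 to 0.525) and without EC P28 replicate 1 (0.382), AT2 P28 replicate 2 (0.0549) or AT2 P28 replicate 3 (0.121).

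**Figure D2:**
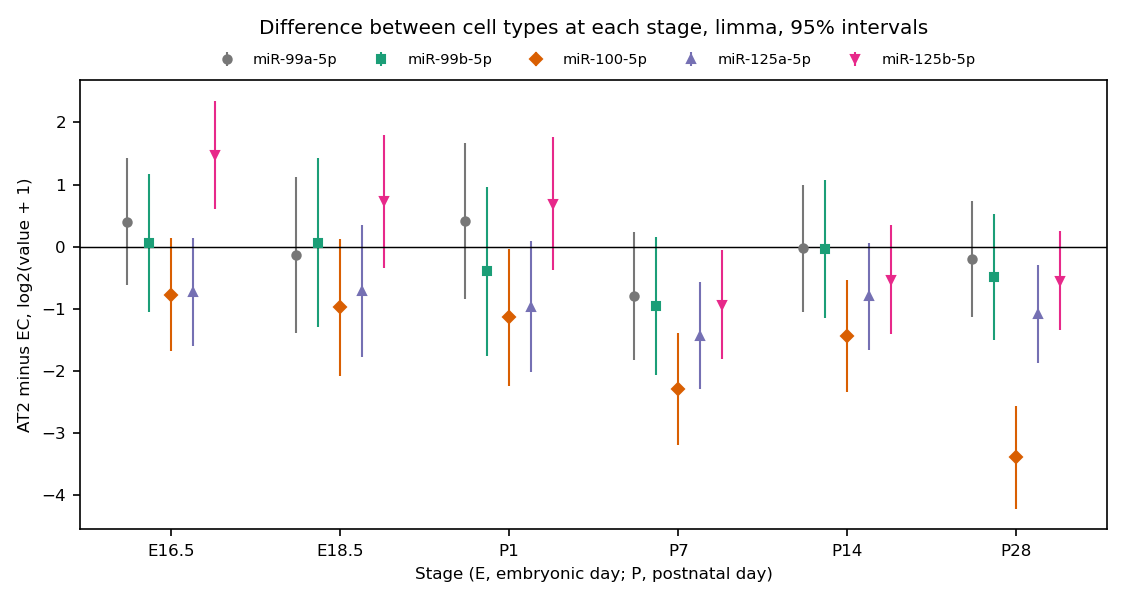
Fitted log2 difference, AT2 minus EC, of each member at each stage, with 95% limma intervals. The interval of miR-100-5p at P28, around -3.39, lies apart from those of the other members at that stage, and miR-125b-5p passes from 1.48 at E16.5 to -0.93 at P7, where its adjusted p was 0.0741.

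The third comparison followed the members with age in EC. miR-125b-5p and miR-100-5p rose from early to late, by 2.11-fold and 1.88-fold, while the other 3 did not pass the test. Of all tested, 9.27% were called higher late. The median change over all tested was -0.57 and that of the members 0.10, and relative to the former miR-125b-5p rose by 1.65 and miR-100-5p by 1.48. With quantile scaling these offsets were 0.79 and 1.05.

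In EC, miR-125b-5p was at 1356 and 1882 at E16.5, 1815 in the E18.5 sample, 1579 in the P1 sample, 5411 and 3080 at P7, 2718 and 3045 at P14, and 4419 and 3584 at P28. The 6 late samples all lay above the 3 early ones, and the P1 sample lay within the early range. Means were 1684 ± 286 (SD, n = 3) early and 3710 ± 1023 (SD, n = 6) late. The log2 change was 1.08 ± 0.31 (SE, limma adjusted p = 0.0133), and it was called in 23 of 23 fits without a sample. It was lost under quantile scaling (0.76, adjusted p = 0.0658) and total-count scaling (0.99, adjusted p = 0.134).

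For miR-100-5p in EC, means were 198 ± 14.0 (SD, n = 3) early and 387 ± 137 (SD, n = 6) late. Of the 6 late samples 5 lay above every early one, the exception being EC P14 replicate 2 at 192. The log2 change was 0.91 ± 0.32 (SE, adjusted p = 0.0338). The call was lost without EC E16.5 replicate 1 (0.0713), EC E16.5 replicate 2 (0.0704), EC E18.5 replicate 1 (0.106), EC P7 replicate 1 (0.0725), EC P14 replicate 1 (0.0545) or EC P28 replicate 1 (0.0573). It was also lost with total-count scaling (0.167) and without the 2 samples with fewest counts (0.0983).

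miR-125a-5p in EC had a mean of 7158 ± 219 (SD, n = 3) early and 4836 ± 1337 (SD, n = 6) late. All 6 late samples lay below the 3 early ones, but its log2 change of -0.62 ± 0.30 did not pass (limma adjusted p = 0.104), except with the title prefix as a covariate (-0.76, 0.0185) and without EC P14 replicate 1 (0.0452). Samples of a group differ in prefix only in EC P14, EC P28 and AT2 P28, so the prefix effect was estimated from those groups alone. For 2 of 5 members, miR-125a-5p and miR-125b-5p, early and late EC samples did not overlap, as for 22.8% of all tested. The change of miR-99a-5p was 0.10 ± 0.36 (adjusted p = 0.845) and that of miR-99b-5p -0.37 ± 0.39 (adjusted p = 0.457). In EC, miR-99b-5p was at 980 and 999 at E16.5, 547 in the E18.5 sample, 650 in the P1 sample, 880 and 712 at P7, 686 and 320 at P14, and 560 and 436 at P28, with the lowest level in EC P14 replicate 2.

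The fourth comparison did the same in AT2. miR-125a-5p, miR-99b-5p and miR-125b-5p fell from early to late, by 2.01-fold, 1.90-fold and 1.62-fold, and 40.1% of all tested were called lower late. With the deposited scaling the median change over all tested was -0.64 and that of the 5 members -0.69, near that of the panel. Relative to the former, miR-125a-5p stood at -0.36, miR-99b-5p at -0.29 and miR-125b-5p at -0.05. With quantile scaling the median of all tested was 0.08. Relative to it these members stood at -1.14, -1.09 and -0.78, so the offsets depended on the scaling. Of the mesenchymal markers, 2 of 4 were also lower late in AT2, and their part in these falls was not tested.

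In AT2, miR-125a-5p had a mean of 4372 ± 247 (SD, n = 4) early and 2247 ± 708 (SD, n = 7) late. All 7 late samples lay below the 4 early ones, and so did both P1 samples at 1952 and 1550. miR-125a-5p was the 1 member of 5 without overlap, as 32.1% of all tested were. The log2 change was -1.01 ± 0.26 (SE, limma adjusted p = 0.00388) and was called in 23 of 23 fits without a sample. It shrank to -0.12 (adjusted p = 0.717) by median shift and to -0.37 (0.218) by edgeR.

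miR-99b-5p, encoded beside it on chromosome 17, was at 1204 and 892 in AT2 at E16.5, 432 and 758 at E18.5, 613 and 398 at P1, 429 and 391 at P7, 472 and 446 at P14, and 572, 509 and 149 at P28. AT2 E18.5 replicate 1 was as low as the late samples, so the groups overlapped. The log2 change was -0.93 ± 0.33 (SE, adjusted p = 0.0283). The call was lost without AT2 E16.5 replicate 1 (0.0979), AT2 E18.5 replicate 2 (0.151), AT2 P7 replicate 2 (0.0545) or AT2 P14 replicate 2 (0.0522). It was lost as well by median shift (-0.04, adjusted p = 0.917), total-count scaling (-1.09, 0.0702) and by edgeR (-0.27, 0.462).

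In AT2, miR-125b-5p was at 4630 and 4278 at E16.5, 3038 and 3001 at E18.5, 2780 and 2349 at P1, 2129 and 2154 at P7, 2389 and 1664 at P14, and 4119, 3293 and 1500 at P28. Of the 7 late samples 5 lay below every early one, while 2 of the P28 samples were within the early range. The log2 change was -0.69 ± 0.26 (SE, adjusted p = 0.0359). It was lost without AT2 E16.5 replicate 1 (0.0942), E16.5 replicate 2 (0.0725), E18.5 replicate 1 (0.0756), E18.5 replicate 2 (0.0905), P7 replicate 1 (0.0675), P7 replicate 2 (0.0612) or P14 replicate 2 (0.0802). By median shift it turned to 0.19 (adjusted p = 0.633), and it was not called with total-count scaling (0.0978), with no filter (0.0540), with no trend (0.0508) or by edgeR (0.898).

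Neither miR-100-5p (-0.59 ± 0.27, limma adjusted p = 0.0786) nor miR-99a-5p (-0.38 ± 0.31, adjusted p = 0.303) passed in AT2. miR-100-5p passed without EC P14 replicate 1 (0.0478), EC P14 replicate 2 (0.0472) or AT2 E18.5 replicate 1 (0.0312), with the title prefix as a covariate (-0.62, 0.0484) and without 3 EC samples at once, replicate 1 of P1 and replicate 2 of P14 and of P28 (0.0455). The sign of its value turned by median shift (0.30), quantile scaling (0.08) and edgeR (0.02), and that of miR-99a-5p by median shift (0.51) and edgeR (0.29), all without passing. Late AT2 levels of miR-99a-5p ranged from 612 to 2315 with a median of 966 (n = 7), and early ones from 1165 to 1854 with a median of 1361 (n = 4). Both the highest and the lowest AT2 level of miR-99a-5p were late, in AT2 P14 replicate 1 and AT2 P28 replicate 3.

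The test of the difference between the 2 changes asked whether age acted alike in both cell types. miR-125b-5p and miR-100-5p changed more negatively in AT2 than in EC, and 3.31% of all tested were called in that direction. For miR-125b-5p the difference of changes was -1.77 ± 0.40 on the log2 scale (SE, limma adjusted p = 0.0149). It was called in 23 of 23 fits without a sample and under 12 of 13 alternatives, the exception being total-count scaling (-1.85, adjusted p = 0.172). For miR-100-5p it was -1.50 ± 0.42 (adjusted p = 0.0352), called under 8 of 13 alternatives and in 11 of 23 fits without a sample.

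The samples whose omission ended the call of miR-100-5p were, in EC, both E16.5 samples (0.0805 and 0.0769), E18.5 (0.0641), P7 replicate 1 (0.0773), P14 replicate 1 (0.0509) and P28 replicate 1 (0.0742). In AT2 they were both E16.5 samples (0.0592 and 0.126), E18.5 replicate 2 (0.146), both P7 samples (0.0832 and 0.0513) and P14 replicate 2 (0.0606). The differences of miR-99b-5p (-0.56), miR-99a-5p (-0.48) and miR-125a-5p (-0.38) did not pass, with adjusted p from 0.704 to 0.751. Of the mesenchymal markers, 0 of 4 passed this test in limma, although 3 had an unadjusted p under 0.05 and their median was -1.58. Their part in the members' differences was not tested.

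**Figure D3:**
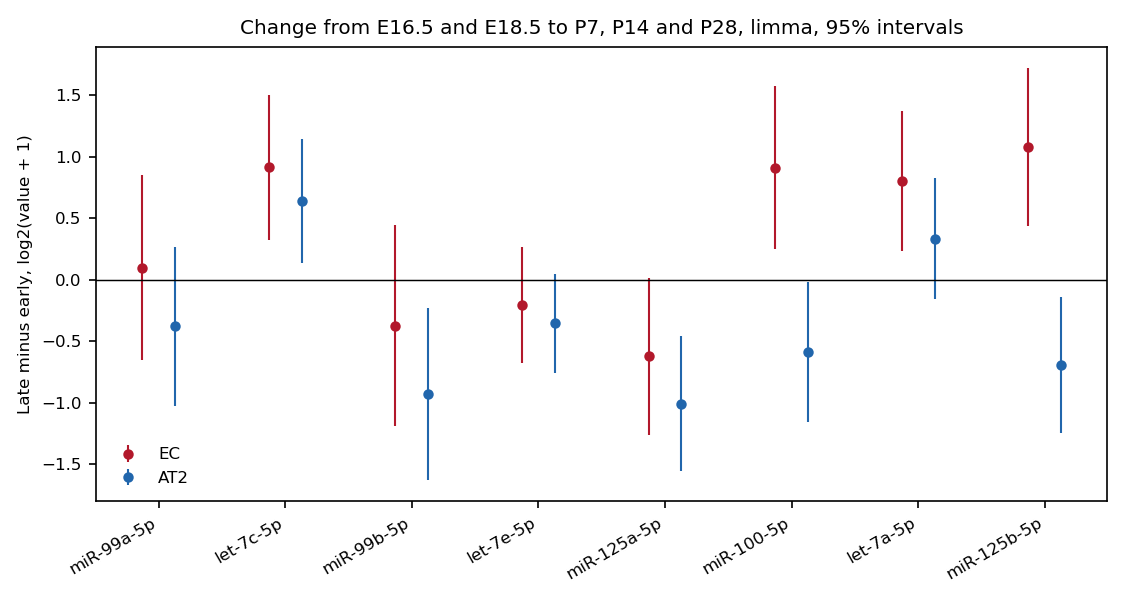
Log2 change from early to late stages with 95% limma intervals, EC in red and AT2 in blue, for the members and the let-7 microRNAs encoded in the same clusters. The EC and AT2 intervals of miR-125b-5p, around 1.08 and -0.69, lie on opposite sides of 0, while miR-125a-5p is below 0 in both, at -0.62 and -1.01.

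Both miR-125 members carry the same seed, and their balance shifted with age in EC. The ratio of miR-125b-5p to miR-125a-5p within a sample was 0.196, 0.262 and 0.247 in the early EC samples and 0.466 at P1. In late EC samples it ran from 0.436 to 1.04, with a geometric mean of 0.770 against 0.233 early. All 6 late EC ratios lay above the 3 early ones, which follows from the separation of each member's levels given above. In AT2 the ratio ran from 0.638 to 1.13 early (geometric mean 0.839, n = 4), was 1.42 and 1.51 at P1, and ran from 0.682 to 1.47 late (geometric mean 1.08, n = 7), with overlap. Early AT2 ratios all lay above early EC ratios, whereas late EC and AT2 ratios overlapped. The lowest late EC ratio was that of EC P14 replicate 1.

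**Figure D4:**
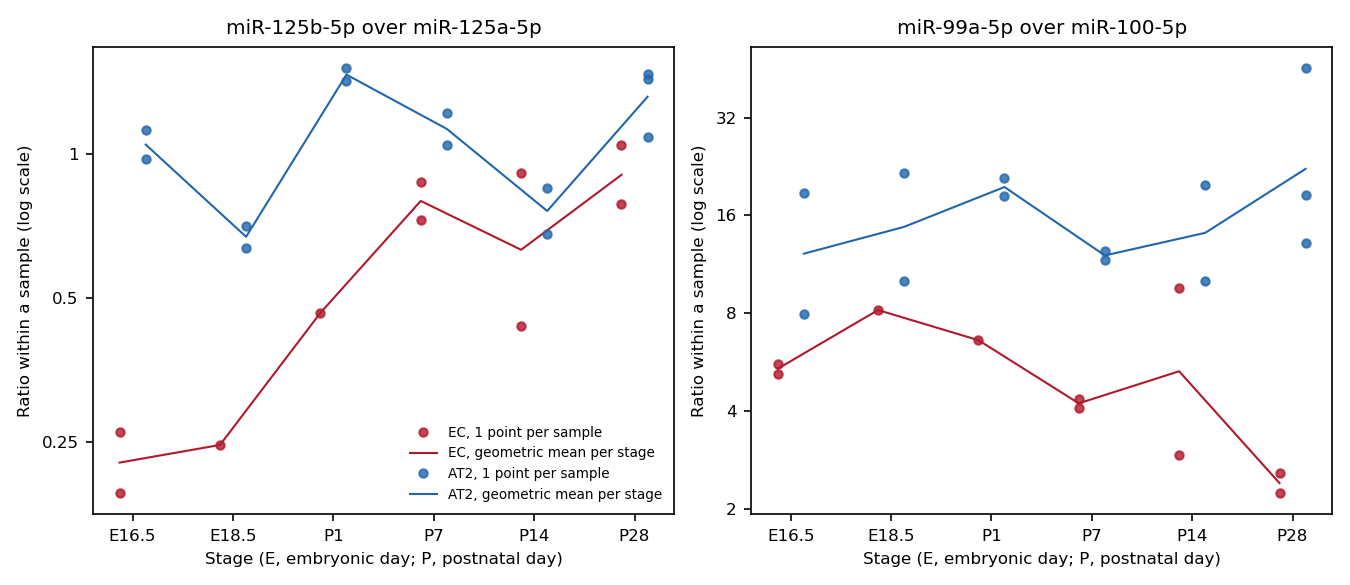
Ratio of miR-125b-5p to miR-125a-5p and of miR-99a-5p to miR-100-5p within each sample (log axes) against stage, with lines through geometric means, EC in red and AT2 in blue. In EC the former rises from between 0.196 and 0.262 early to between 0.436 and 1.04 late, and AT2 points of the latter lie above the EC points at each stage.

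The F-test across all 6 stages made fewer calls among the members. In AT2 it called miR-125a-5p alone (limma adjusted p = 0.0247), 1 of 5 members against 49% of all tested, and miR-100-5p fell just short at 0.0504. The call of miR-125a-5p was lost without AT2 E16.5 replicate 1 (0.0544), E16.5 replicate 2 (0.0652), E18.5 replicate 1 (0.0581), E18.5 replicate 2 (0.0772), P1 replicate 2 (0.0570) or P7 replicate 1 (0.0506). It was lost as well by median shift (0.289), where miR-100-5p was called instead (0.0405), and by edgeR (0.248). In EC it called miR-100-5p (0.0494) and miR-125b-5p (0.0499953), 2 of 5 against 27.2% of all tested. Both stood at the threshold, and each was called in 7 of 23 fits without a sample, the adjusted p otherwise rising to at most 0.148 (without EC P28 replicate 1) and 0.125 (without EC E16.5 replicate 1).

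The order of the stage means differed between members and between cell types. miR-100-5p was highest at P28 in EC (mean 509) and lowest there in AT2 (mean 47.6), with its EC low at P1 (125) and its AT2 high at E16.5 (123). miR-125b-5p was highest at P7 in EC (4246) and at E16.5 in AT2 (4454), and lowest at P1 in EC (1579) and at P14 in AT2 (2027). miR-125a-5p had its highest mean at E18.5 in both EC (7364) and AT2 (4496) and its lowest at P1 in both (3390 and 1751). EC had 1 sample at E18.5 and 1 at P1. In AT2 the E18.5 samples of miR-125a-5p overlapped those at E16.5, and the P1 samples overlapped those at P7.

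miR-99b-5p was highest at E16.5 in both cell types (990 in EC and 1048 in AT2), with its lowest mean at P14 in EC (503) and at P28 in AT2 (410). miR-99a-5p was highest at P7 in EC (1520) and at E16.5 in AT2 (1510), and lowest at P1 in EC (825) and at P7 in AT2 (870). Of the 50 pairs of neighbours in these orders, 26 overlapped in their samples, 11 did not, and 13 involved a group of 1 sample. Most neighbouring stages were therefore not separated beyond the spread of their samples.

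Of the 3 let-7 microRNAs encoded in the same clusters, 2 rose late in EC and 1 rose late in AT2. Among all 302 tested, 28 were called higher late in EC and 34 in AT2. let-7c-5p, encoded beside miR-99a-5p on chromosome 16 and also elsewhere, rose late in EC by 0.91 ± 0.28 (log2, SE, limma adjusted p = 0.0198) and in AT2 by 0.64 ± 0.24 (adjusted p = 0.0357). let-7a-5p, encoded at several places including chromosome 9, rose in EC by 0.80 ± 0.27 (adjusted p = 0.0307) while its AT2 value was 0.33 ± 0.23 (adjusted p = 0.232). let-7e-5p, from the short chromosome 17 cluster, had a log2 value of -0.21 ± 0.22 in EC (adjusted p = 0.472) and -0.35 ± 0.19 in AT2 (adjusted p = 0.129). None of these 3 passed the test between cell types averaged over stages, at adjusted p from 0.0778 to 0.651.

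Of all 9 let-7 microRNAs tested, 2 were lower in AT2 than in EC (let-7b-5p and let-7i-5p), 2 rose late in AT2 and 3 rose late in EC. Among all 302 tested these calls numbered 144, 34 and 28. In the test of the difference between changes limma called 0 of 9, and 0 had an unadjusted p under 0.05. Their median change was 0.33 in AT2 and 0.45 in EC, where the median of all tested fell by 0.64 and 0.57. Across the 23 samples Pearson's r of log2 levels was 0.72 between miR-125a-5p and let-7e-5p, 0.66 between miR-99b-5p and let-7e-5p and 0.68 between miR-99b-5p and miR-125a-5p. On the longer clusters it was 0.16 between miR-99a-5p and let-7c-5p and -0.32 between miR-100-5p and let-7a-5p, where both let-7 microRNAs are also encoded elsewhere. With miR-125b-5p, r was 0.57 for miR-99a-5p and 0.26 for miR-100-5p. Once each cell type's mean was removed, those with miR-125b-5p were 0.58 and 0.53. These r values describe samples that share scaling, cell type and stage, and carry no test.

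The opposite arms of the members' hairpins were on the panel in 2 of 6 cases, miR-125a-3p (MIMAT0004528) and miR-125b-1-3p (MIMAT0004669). The log2 difference of miR-125a-3p, AT2 minus EC, was -0.65 ± 0.22 (SE, limma adjusted p = 0.0146), and late in AT2 it fell by 0.90 ± 0.32 (adjusted p = 0.0263). Levels of miR-125a-3p ran from 69.9 to 147 in EC and from 35.5 to 170 in AT2. Levels of miR-125b-1-3p ran from 13 to 55.5 in EC and from 7.16 to 29.7 in AT2, and it was above background in 1 of 10 EC and 10 of 13 AT2 samples. Its scaled values elsewhere rest on background counts, which the sample factor multiplies, so no difference between cell types or with age is given for it.

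Across the 23 samples, miR-125b-1-3p had an r of 0.29 with miR-125b-5p of its own hairpin and 0.90 with miR-125a-5p. Its values are in part scaled background, as above, so these r describe the scaled counts only. The r of miR-125a-3p with miR-125a-5p was 0.74. Among the members themselves r was highest for miR-100-5p with miR-125a-5p (0.73, and 0.42 once each cell type's mean was removed). With those means removed it was highest for miR-99b-5p with miR-125a-5p (0.70), followed by miR-99a-5p with miR-125b-5p (0.58). With the means kept, r was 0.26 between miR-99a-5p and miR-100-5p and 0.21 between miR-125a-5p and miR-125b-5p, which share their seeds.

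The non-member most like each member over the 23 samples was let-7d-5p for miR-99a-5p (r = 0.67), MIMAT0000647 for miR-99b-5p (0.83), MIMAT0000605 for miR-100-5p (0.91), MIMAT0000673 for miR-125a-5p (0.93) and MIMAT0000663 for miR-125b-5p (0.61). The next were miR-125b-1-3p, with the same limit, for miR-99a-5p (0.67) and for miR-125a-5p (0.90), MIMAT0000555 for miR-99b-5p (0.82), MIMAT0000537 for miR-100-5p (0.89) and MIMAT0000151 for miR-125b-5p (0.53). Identifiers without a name are not paired with one in the sources used here. With cell type means removed, the r of miR-100-5p with MIMAT0000605 was 0.65, while that of miR-125b-5p with MIMAT0000663 remained 0.61.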

How the data were processed

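MicroRNA levels were measured with the nCounter mouse miRNA kit in 23 samples of total RNA, per the labels' protocols. What the authors deposited is a scaled signal: each sample's nCounter counts multiplied by a factor of its own, as the numbers show. In all, 13861 of 13861 values (100%) were whole multiples of the factor within a tolerance of 0.1, and 215 more, in 9 columns, had been set to 1. The normalization method is not given in the sources used here, and the submitters' processing notes name only the build mm10.

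Background was the mean plus 2 SD of 8 low ERCC rows per sample, and a microRNA above it in at least 2 samples was tested. limma 3.58.1 (R 4.3.3; lmFit and eBayes with trend) was fitted to log2(value + 1) with 12 group means over 23 samples, and p-values were two-sided, Benjamini-Hochberg adjusted over 302 microRNAs, with a threshold of 0.05. A fold change on the log2(value + 1) scale understates changes of low microRNAs. The EC groups at E18.5 and P1, of 1 sample, take their spread from the rest. Separate animals are not named in the labels, so p-values reflect only how these samples vary, possibly for technical reasons.

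The members and lists were chosen with earlier results of these data known. Named were the members, opposite arms, let-7 microRNAs of the clusters and the 2 non-members with the highest Pearson r to each member. Alternatives changed scaling (median shift, quantile, total microRNA count), pseudocount (10), filter, background subtraction, trend, array weights, title ID block, title prefix and samples, and used edgeR 4.0.16 (quasi-likelihood) on recovered counts. Title prefix varied within a group only in EC P14, EC P28 and AT2 P28, so stage and prefix are largely confounded. The limma step was tested on simulated data. Ratios and correlations used Python 3.11.15.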

Additional observations from a re-analysis of the deposited data

Results flagged for a closer look

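In 2 members the change with age differed between the cell types by limma's test of the difference itself. For miR-125b-5p the AT2 change minus the EC change was -1.77 on the log2 scale. It was made of a rise of 1.08 in EC and a change of -0.69 in AT2. The latter lay near the median AT2 change over all tested (-0.64) and turned to 0.19 by median shift. By quantile scaling it was -0.70, against a median of 0.08. The EC rise was not called under quantile or total-count scaling. For miR-100-5p the difference of changes was -1.50, made of a rise in EC and a change in AT2 that did not pass its own test. Leaving out any 1 of the 23 samples kept the call of miR-125b-5p, with adjusted p up to 0.0470, whereas 12 such omissions ended that of miR-100-5p, with adjusted p up to 0.146.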

How the results depend on the processing

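Over all 602 microRNA rows, the count called with no filter was 467 for AT2 against EC (203 in the fit reported), 192 for EC with age and 189 for the EC F-test (82). Scaled to the total microRNA count, it was 55 for EC with age, 2 for the difference between changes (19), 38 for the EC F-test and 222 for the single stages together (425). edgeR called 72 for EC with age and 12 for the difference between changes. With 3 EC samples left out together (replicate 1 of P1 and replicate 2 of P14 and of P28) the latter count was 31, and without the 2 samples with fewest counts, chosen after seeing the data, the EC count was 73.

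Of the members, 3 were called with age in AT2, but 0 by median shift and by edgeR and 1 with total-count scaling, and 4 each with title prefix and without the 3 EC samples. In EC 2 were called, but 3 with title prefix, 1 by quantile scaling, 0 with total-count scaling and 1 without the 2 samples with fewest counts. In the difference between changes 2 were called, but 0 with total-count scaling and 1 each by median shift, quantile scaling, no filter and without those 2 samples. The AT2 F-test called 1 member, but 2 by quantile scaling, 2 with total-count scaling, 4 with array weights, 3 with title prefix, 2 without the 3 EC samples and 0 by edgeR. The EC F-test called 2 members, but 1 by quantile scaling and 0 with total-count scaling, with no trend and without the 3 EC samples. With title prefix it called 1, miR-99b-5p (limma adjusted p = 0.0317). There it lost both members of the fit reported, miR-100-5p (0.0538) and miR-125b-5p (0.0877). The single stages gave 6 member calls, but 3 by median shift, 2 with total-count scaling and 8 with array weights. Among values called in either fit, the sign turned for miR-99a-5p between cell types with total-count scaling (0.74) and miR-125b-5p with age in AT2 by median shift (0.19). Values that passed in neither fit turned as well, among them miR-99b-5p between cell types with total-count scaling (0.51) and, with age in AT2 by median shift, miR-100-5p (0.30) and miR-99a-5p (0.51). The cause of these shifts was not tested.

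Leaving out 1 sample at a time, all-microRNA counts ranged from 185 to 212 for AT2 against EC, 115 to 167 for AT2 with age, 66 to 123 for EC with age, 9 to 25 for the difference between changes, 116 to 164 and 51 to 105 for the AT2 and EC F-tests, and 307 to 534 for the single stages. Member counts were 2 throughout for AT2 against EC, 1 to 4 for AT2 with age, 1 to 2 for EC with age and for the difference between changes, 0 to 2 for each F-test and 5 to 7 for the single stages.

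With the title ID as a replicate block (estimated correlation 0.231), miR-125b-5p at P7 was called (-0.93, adjusted p = 0.0400), and no other member's call changed. The block moved the all-microRNA count for AT2 against EC to 213 and for the single stages together to 547. Samples with a shared title ID deviated together with r of 0.27 at E16.5, 0.28 at P7 and 0.0958 at P28. Depth limits miR-100-5p most, since it had the lowest recovered counts.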
